A study of Sus scrofa with 8 samples.

Results

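The HSP70 family was followed through 6 genes, HSP70.2, HSPA6, HSPA8, HSPH1, HSPA5 and HSPA13, of the 6765 genes that the array's annotation names. The members are all probe sets that carry 1 of these symbols and no other, 12 of the 23999 tested. HSP70.2 had 3 such probe sets, HSPA8 had 4, HSPA13 had 2, and HSPA6, HSPH1 and HSPA5 had 1 each. RNA came from castrated male Yorkshire pigs that had all had a myocardial infarction, and from a part of the left ventricle remote from the scar. The pigs were under 1 year old and weighed 54.5 kg on average. The groups were 3 untreated animals, 3 animals infused with GGF2 at 0.67 mg/kg per infusion (low dose) and 2 at 2.0 mg/kg (high dose), in both cases for 4 weeks, with 1 Affymetrix porcine array for each animal. GGF2, glial growth factor 2, is a form of neuregulin-1 that acts on heart muscle through ERBB receptors. There was no animal without an infarct and no vehicle-infused animal, so the comparisons are between infarcted hearts with and without GGF2, or between the doses.

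HSP70 proteins bind stretches of unfolded protein and release them in cycles driven by ATP. HSP40 proteins (the DNAJ family) bring clients to HSP70 and speed up the use of ATP, and exchange factors such as the BAG and HSP110 proteins eject ADP so that the client is let go. Some family members are made in every cell at all times and others are switched on by the heat shock factor HSF1 when proteins misfold, as in heat, ischaemia or other stress. In heart muscle the inducible members are known as a response to ischaemia and to mechanical load.

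Values are given as RMA signal in log2 units, so that a step of 1 is a doubling. A value under 3.77, the median of the arrays' lower quartiles, was taken as close to background. Of the 12 probe sets only the 2 dimmest, both of HSPA8, fell into that range on any array. Heart muscle markers fitted the labelled tissue: 16 of 19 listed were measured, none close to background, with a mean level of 12.96 to 13.08 in untreated animals, 12.84 to 13.02 at the low dose and 12.77 to 12.89 at the high dose. The lower high-dose means go with the natriuretic peptide genes NPPA (-1.34 against untreated) and NPPB (-2.25). For NPPA the high-dose replicates 1 and 2 were far apart, at 8.21 and 6.09, beside 8.45 to 8.59 in untreated animals. At the high dose 12 of the 16 markers were higher than in untreated animals, with a median difference of 0.05, and none passed. The 8 lymphocyte markers measured had mean levels of 4.23 to 4.44, with 2 of the 8 close to background.

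**Figure D1:**
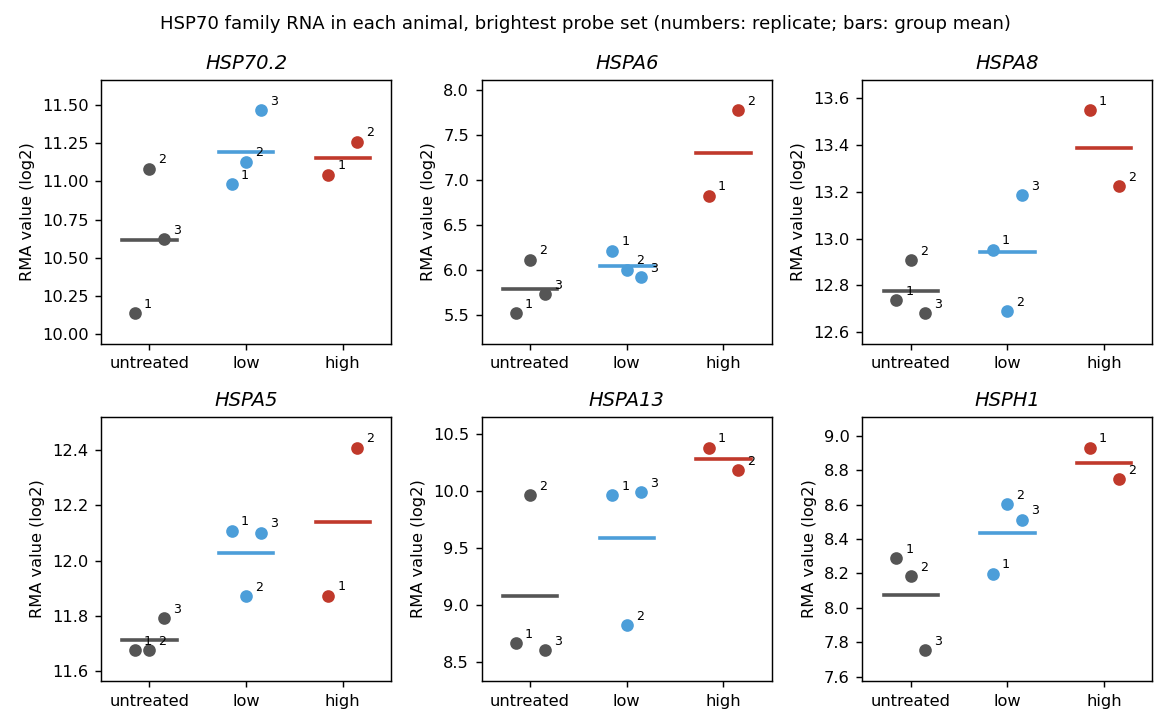
RMA values (log2) of the 6 genes on the brightest probe set of each, by group, 1 point for each animal with its replicate number and a bar at the group mean; each panel has its own vertical axis. Both high-dose animals lie above all 3 untreated animals for HSPA6, HSPA8, HSPA5, HSPA13 and HSPH1, and not for HSP70.2, where untreated replicate 2 reached 11.08.

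HSP70.2 is the pig's stress-inducible cytosolic HSP70, for which RefSeq also lists the names HSPA1A and HSPA1B; in the Sscrofa11.1 annotation it lies within the span of its relative HSPA1L. On its brightest probe set it measured 10.14, 11.08 and 10.62 in untreated animals, 10.98, 11.13 and 11.46 at the low dose and 11.04 and 11.26 at the high dose. One untreated animal lay within the range of the treated ones, and the other two lay below all 5. The second probe set measured 10.25, 10.50 and 10.37 in untreated animals, 11.28, 10.46 and 10.97 at the low dose and 11.04 and 11.40 at the high dose. The third measured 8.86, 9.34 and 9.01 in untreated animals, 9.72, 9.37 and 9.60 at the low dose and 10.03 and 10.12 at the high dose. On this probe set the 3 groups did not overlap and their order followed the dose. The gap between untreated replicate 2 (9.34) and low-dose replicate 2 (9.37) was narrow. On the brightest and second probe sets the low-dose animals overlapped with both other groups. The share of all probe sets with such an order was not taken.

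High-dose minus untreated, the difference of HSP70.2 on the log2 scale was 0.54 ± 0.26 on the brightest probe set, 0.85 ± 0.23 on the second and 1.01 ± 0.17 on the third (SE from limma, n = 2 and 3 animals), or 1.45-fold, 1.80-fold and 2.01-fold. None passed the test over all 23999 probe sets, with limma adjusted p = 0.664, 0.4 and 0.178. Low-dose minus untreated, the 3 probe sets differed by 0.58 ± 0.23, 0.53 ± 0.21 and 0.49 ± 0.15 (n = 3 each), each with a limma adjusted p = 0.998. The brightest probe set's low-dose difference was 0.34 without untreated replicate 1, and 0.92 without untreated replicate 2 and low-dose replicate 1. The third probe set was the only member to pass in any alternative fit: without the 2 animals whose pig numbers follow each other across groups (untreated replicate 2 and low-dose replicate 1), its high-dose difference was 1.14 with a limma adjusted p = 0.049, while over the 17 alternatives the adjusted p ran up to 0.955. Without untreated replicate 1 the brightest probe set's high-dose difference was 0.30. Copies of the inducible gene are nearly identical, and how far the probes tell them apart was not tested.

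HSPA6 encodes a cytosolic HSP70 that in human cells is close to silent until stress and is then strongly induced. It measured 5.52, 6.12 and 5.73 in untreated animals, 6.22, 6.01 and 5.92 at the low dose and 6.83 and 7.78 at the high dose. Untreated and low-dose animals overlapped, and both high-dose animals stood above all 6 of them. High-dose minus untreated, the difference was 1.51 ± 0.28, or 2.86-fold with a 95% confidence interval of 1.84 to 4.43 (limma adjusted p = 0.215). It was the largest difference among the 12 probe sets in this comparison. The 2 high-dose animals were 0.95 apart, and the difference was 1.04 without high-dose replicate 2 and 1.99 without replicate 1. Low-dose minus untreated it was 0.26 ± 0.25, with an interval of -0.31 to 0.82 on the log2 scale (limma adjusted p = 0.998), and was 0.12 without untreated replicate 1, 0.17 without low-dose replicate 1 and 0.42 without untreated replicate 2.

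HSPA8, also called HSC70, is the cytosolic HSP70 that cells make without stress; it strips clathrin from vesicles and takes part in chaperone-mediated autophagy. On its brightest probe set it measured 12.74, 12.91 and 12.68 in untreated animals, 12.95, 12.69 and 13.18 at the low dose and 13.55 and 13.22 at the high dose. Both high-dose animals were above the other 6, and low-dose replicate 2 was level with the lowest untreated animals. High-dose minus untreated, the difference was 0.61 ± 0.17, or 1.53-fold (95% confidence interval 1.16 to 2.01, limma adjusted p = 0.405). Low-dose minus untreated it was 0.17 ± 0.15 (limma adjusted p = 0.998), with 0.047 without low-dose replicate 3 and 0.29 without low-dose replicate 2. The other HSPA8 probe sets, 3 in number, were much dimmer, with means of 4.91, 4.17 and 3.82. Their high-dose differences were -0.15, -0.18 and -0.09. On the first of these both high-dose animals lay below all untreated ones, narrowly (4.88 for high-dose replicate 1, 4.89 for untreated replicate 2). With the mean of all 4 probe sets the high-dose difference was 0.05, so the value for HSPA8 rests on its brightest probe set.

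HSPH1 belongs to the HSP110 branch, large relatives of HSP70 that act as its exchange factors and help to dissolve aggregates. It measured 8.29, 8.18 and 7.75 in untreated animals, 8.20, 8.60 and 8.51 at the low dose and 8.93 and 8.75 at the high dose. The high-dose animals were above all others, while low-dose replicate 1 lay among the untreated animals. High-dose minus untreated, the difference was 0.76 ± 0.19, or 1.70-fold (95% confidence interval 1.25 to 2.30, limma adjusted p = 0.384). Low-dose minus untreated it was 0.36 ± 0.17 (limma adjusted p = 0.998), and 0.20 without untreated replicate 3.

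HSPA5, known as BiP or GRP78, is the HSP70 of the endoplasmic reticulum; it folds secreted and membrane proteins and holds the sensors of the unfolded protein response inactive. It measured 11.68, 11.68 and 11.79 in untreated animals, 12.11, 11.87 and 12.10 at the low dose and 11.87 and 12.41 at the high dose. All 5 treated animals lay above all 3 untreated ones, with a narrow gap between untreated replicate 3 and low-dose replicate 2. High-dose minus untreated, the difference was 0.43 ± 0.17 (limma adjusted p = 0.574), and low-dose minus untreated it was 0.31 ± 0.15 (limma adjusted p = 0.998). Untreated animals were within 0.12 of each other and the 2 high-dose animals 0.54 apart. The high-dose difference was 0.70 without high-dose replicate 1 and 0.16 without replicate 2.

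HSPA13 (STCH) is a microsomal relative that keeps the ATPase part of HSP70 and lacks the part that holds clients. On its brightest probe set it measured 8.66, 9.96 and 8.60 in untreated animals, 9.96, 8.82 and 9.99 at the low dose and 10.38 and 10.18 at the high dose. The 8 animals fell into 3 low ones, untreated replicates 1 and 3 and low-dose replicate 2, and 5 that were at least 1 unit higher. The spread within the untreated group, 1.36 from lowest to highest, was larger than the high-dose difference of 1.20 ± 0.46 (limma adjusted p = 0.558). Low-dose minus untreated the difference was 0.51 ± 0.41 (limma adjusted p = 0.998); it was 0.96 without untreated replicate 2 and 0.28 without untreated replicate 3. The dimmer probe set measured 4.13, 4.51 and 4.27 in untreated animals, 4.51, 4.23 and 4.35 at the low dose and 5.18 and 5.13 at the high dose. Here only the high-dose animals stood apart, by 0.85 ± 0.15 over untreated (limma adjusted p = 0.19), and the low-dose difference was 0.06 ± 0.13.

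**Figure D2:**
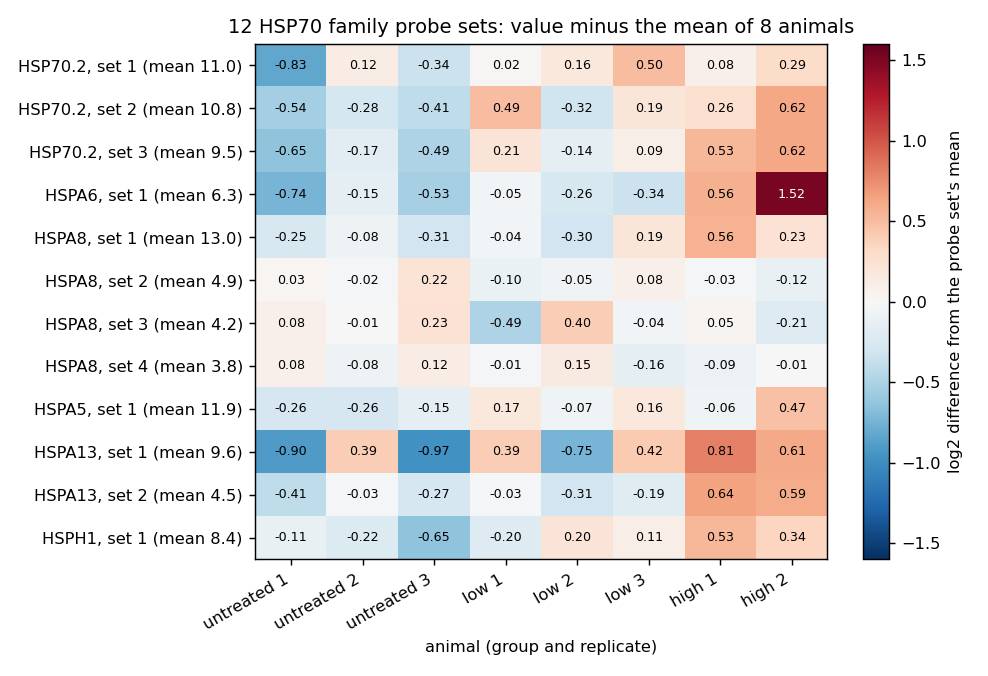
Each of the 12 probe sets (rows, with its mean RMA value) in each of the 8 animals (columns), as the log2 difference from that probe set's mean. The lowest value is in untreated replicate 1 or 3, and the highest in a high-dose animal, for every row except those of HSPA5 (low end), of the brightest HSP70.2 probe set (high end) and of the dim HSPA8 probe sets; the 3 dim HSPA8 rows lie within 0.5 of their means.

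Taken gene by gene on the brightest probe set, the high-dose mean was above the untreated mean for 6 of 6 members, against 53.3% of all probe sets tested. The median difference of the members was 0.69, beside 0.01 over all probe sets. For 5 of the 6 both high-dose animals lay above every untreated animal, which held for 14.7% of all probe sets. An unadjusted p under 0.05 with a higher level was reached by 5 of 6, against 3.61% of all. Over all 12 member probe sets, 9 were higher and 3 lower, and 8 had an unadjusted p under 0.05, all of them higher. Of the 12, 8 did not overlap on the higher side (14.7% of all) and 1 on the lower side, where the share over all was not taken. The lower one was a dim HSPA8 probe set, with 4.88 in high-dose replicate 1 and 4.89 in untreated replicate 2. Several of the 12 belong to the same gene and are not separate members. The members were chosen with earlier results of these data known, so these counts are a description only. None of the 12 probe sets passed with a limma adjusted p under 0.05, and 0% of all probe sets did: limma passed 0 of 23999, of which 1913 had an unadjusted p under 0.05. The highest of the 8 values belonged to a high-dose animal for 5 members and to a low-dose animal for HSP70.2, and the lowest to an untreated animal for all 6. These extremes are read from the same values as the counts above, and their share over all probe sets was not taken.

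At the low dose the mean was also above the untreated mean for 6 of 6 members (52% of all probe sets), with a median difference of 0.34, beside 0.01 over all. HSPA5 was the 1 member whose groups did not overlap, against 5.23% of all probe sets, and HSP70.2 the 1 with an unadjusted p under 0.05 and a higher level (2.77% of all). None passed; limma again passed 0 of 23999 (0%), with 1081 at an unadjusted p under 0.05. With the mean of both doses set against untreated, 6 of 6 members were higher (53.3% of all) with a median difference of 0.56, all 6 had an unadjusted p under 0.05 (2.43% of all), 1 did not overlap (HSPA5; 1.61% of all) and none passed; limma passed 0% of all probe sets, with 1160 at an unadjusted p under 0.05. These comparisons share the untreated animals and are not independent of one another. The 2 controls for RNA integrity differed on the low dose. The gap between the actin control probe sets for the 3′ and 5′ ends was 4.88 to 5.26 in untreated animals, 5.48 to 6.04 at the low dose and 4.92 to 5.18 at the high dose, so that low-dose animals stood apart. For GAPDH the gap was 1.09 to 1.65 in untreated animals, 1.32 to 1.62 at the low dose and 1.10 to 1.17 at the high dose, so that low-dose animals lay within the untreated range. The part of either in the members' values was not tested.

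**Figure D3:**
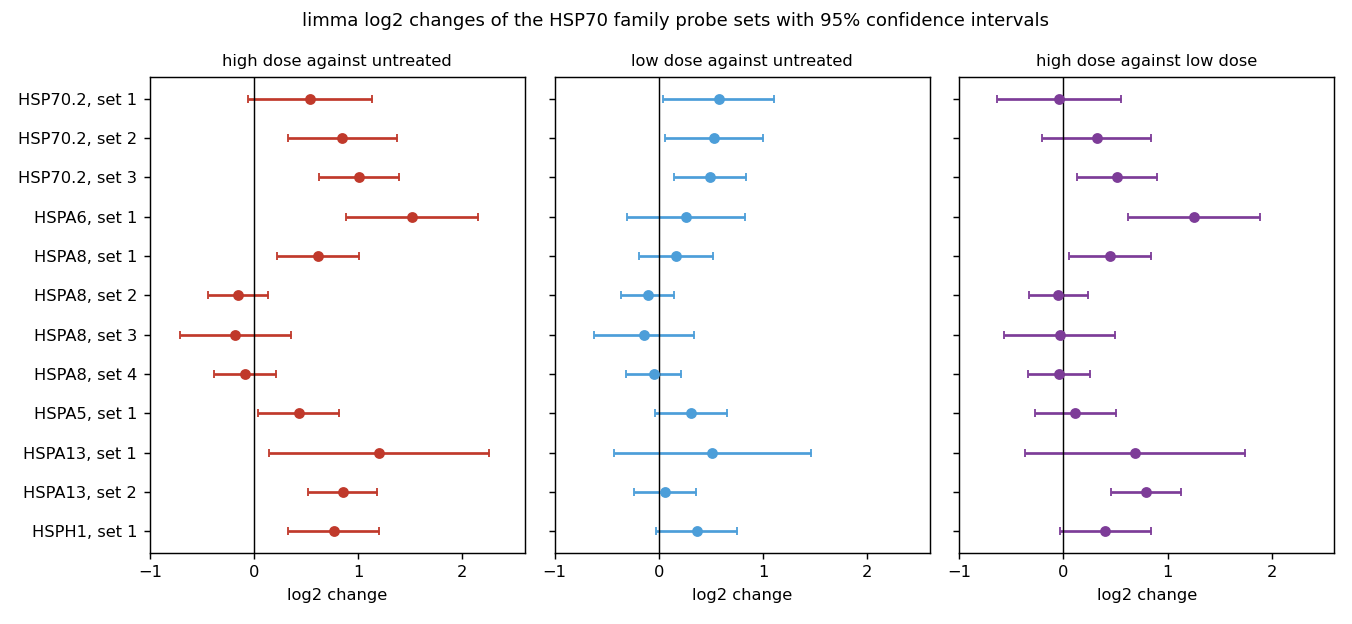
Log2 differences of the 12 probe sets (points) with 95% confidence intervals from limma (bars), for high dose against untreated, low dose against untreated and high dose against low dose. HSPA6 has the highest value in both high-dose panels, at 1.51 over untreated and 1.26 over the low dose, and the 3 dim HSPA8 probe sets lie just below 0 in all 3 panels.

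High-dose minus low-dose, 5 of 6 members were higher on the brightest probe set (51.1% of all probe sets), with a median difference of 0.42, beside 0.01 over all. For 4 of them, HSPA6, HSPA8, HSPA13 and HSPH1, both high-dose animals lay above all 3 low-dose animals (13.2% of all), and 2, HSPA6 and HSPA8, had an unadjusted p under 0.05 (4.38% of all). HSPA6 differed by 1.26 ± 0.28, or 2.39-fold with a 95% confidence interval of 1.54 to 3.71 (limma adjusted p = 0.244); the difference was 0.78 without high-dose replicate 2 and 1.73 without replicate 1. HSPA8 differed by 0.44 ± 0.17, and by 0.28 without high-dose replicate 1. HSPA13 differed by 0.69 ± 0.46 on its brightest probe set, and by 0.31 without low-dose replicate 2. The dimmer HSPA13 probe set differed by 0.79 ± 0.15 (limma adjusted p = 0.173). HSP70.2 differed by -0.04 on its brightest probe set, with an interval of -0.63 to 0.55, and by 0.52 ± 0.17 on its dimmest (limma adjusted p = 0.367). HSPA5 differed by 0.11, with an interval of -0.27 to 0.50. No member passed in this comparison, in which limma passed 6 of 23999 probe sets, 0.025%, with 2455 at an unadjusted p under 0.05.

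The other genes of the HSP70 machinery were read on the brightest probe set of each; none of those named here passed over all probe sets at either dose. Their counts at an unadjusted p under 0.05 on the higher side at the high dose stand against 3.61% of all probe sets, and their counts of higher genes against 53.3% at the high dose and 52% at the low dose. Of 11 other HSP70 and HSP110 genes 6 were measured. At the high dose 5 of them were higher than in untreated animals, with a median difference of 0.24 and 1 at an unadjusted p under 0.05. That gene was HSPA9, the mitochondrial HSP70 (mortalin), with 0.29 ± 0.10 (limma adjusted p = 0.526) and 0.27 and 0.81 on its 2 dimmer probe sets, which were at -0.16 and -0.11 at the low dose. HYOU1, the HSP110 of the endoplasmic reticulum, was at 0.31 ± 0.14 and the HSP110-like HSPA4 at 0.39 ± 0.25. The dimmer HSPA4 probe sets were at 0.27 and 0.02, and the ribosome-bound HSPA14 was at 0.19 ± 0.15. At the low dose 3 of the 6 were higher, with a median of 0.02; HYOU1 was at 0.27, HSPA9 at 0.10, HSPA14 at -0.10 and HSPA2, best known from testis, at -0.24.

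Of 23 HSP40 genes 18 were measured, and 13 were higher at the high dose with a median difference of 0.19. Of these, 2 had an unadjusted p under 0.05 on the higher side and 1 on the lower side, against 4.36% of all probe sets on the lower side. DNAJB1, the main HSP40 partner of inducible HSP70, measured 6.62, 7.79 and 6.32 in untreated animals, 7.82, 7.10 and 8.65 at the low dose and 8.31 and 8.06 at the high dose. Its differences were 1.27 ± 0.50 at the high dose (limma adjusted p = 0.57) and 0.95 ± 0.45 at the low dose (limma adjusted p = 0.998). Both were smaller than the spread among untreated animals, and the animals low for HSPA13 were also the lowest for DNAJB1. DNAJB11, which works with HSPA5 in the endoplasmic reticulum, was at 0.29 at the high dose and 0.24 at the low dose. DNAJA1 was at 0.53 and 0.25, with 0.26 and 0.61 on a dimmer probe set. DNAJB14, the gene on the lower side, was at -0.42 and 0.12. Its other probe set, of similar brightness (mean 6.93 against 7.12), was at -0.08 and 0.04. At the low dose 12 of the 18 were higher, with a median of 0.06.

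Among exchange factors and adaptors 11 of 15 were measured, 8 of them higher at the high dose with a median of 0.22 and 2 at an unadjusted p under 0.05. BAG3, an exchange factor that in muscle passes damaged filament proteins to autophagy, measured 10.08, 11.56 and 10.06 in untreated animals, 11.54, 9.98 and 10.93 at the low dose and 11.78 and 11.77 at the high dose. The high-dose difference of 1.20 ± 0.53 (limma adjusted p = 0.623) was smaller than the spread among untreated animals, with the same 3 animals low as for HSPA13. GRPEL1, the exchange factor of mitochondrial HSP70, was at 0.28, FKBP4, a partner of HSP90, at 0.42 and BAG6 at 0.22. At the low dose the median was 0.04, with BAG5 at 0.34, HSPBP1 at 0.19, ST13 at -0.14 and BAG1 at 0.14. The dimmer BAG5 and BAG1 probe sets were at 0.05 and 0.01 there. For the high dose, the dimmer BAG3 probe set was at 1.25 and those of BAG6 at 0.12 and 0.21.

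**Figure D4:**
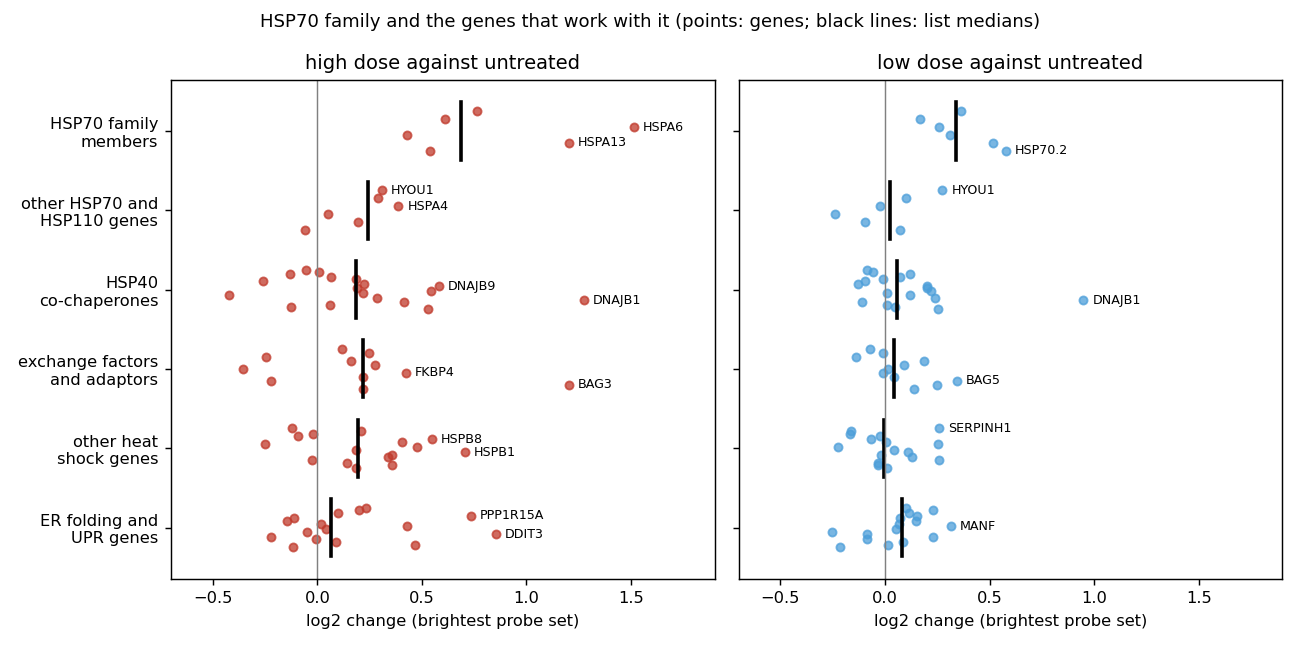
Log2 differences of the 6 HSP70 family members and of 5 other lists, for high dose against untreated and low dose against untreated. Each point is a gene on its brightest probe set, and each black line is the list's median. The medians of the 6 members are 0.69 and 0.34. Those of the 5 other lists lie between 0.06 and 0.24 at the high dose and between -0.01 and 0.08 at the low dose. The list of other HSP70 and HSP110 genes, which are of the same family, has medians of 0.24 and 0.02.

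Of 18 other heat shock genes, most of them cytosolic but with the mitochondrial HSPD1 and HSPE1 and the endoplasmic reticulum's SERPINH1 among them, 16 were measured, and 11 were higher at the high dose, with a median of 0.20 and 3 at an unadjusted p under 0.05. The small heat shock proteins HSPB1 and HSPB3 were at 0.71 ± 0.20 and 0.48 ± 0.15, HSP90AA1 was at 0.34 and HSP90AB1 at 0.36; the 4 dimmer HSP90AA1 probe sets were at 0.13, 0.27, 0.09 and 0.11. At the low dose the median was -0.01, with 8 of 16 higher; the collagen chaperone SERPINH1 was at 0.26, HSPB3 at -0.23, HSF2 at 0.26 and HSP90AA1 at 0.13. HSF1 itself was at 0.14 ± 0.12 at the high dose and -0.03 ± 0.11 at the low dose. Of 25 endoplasmic reticulum folding and unfolded protein response genes 16 were measured. Their median was 0.06 at the high dose, with 10 higher and 2 at an unadjusted p under 0.05, and 0.08 at the low dose, with 12 higher. PPP1R15A (GADD34), which ends the translation block of that response, was at 0.73 ± 0.24 at the high dose, the secreted stress protein MANF at 0.43 ± 0.18, ATF4 at 0.47 and XBP1 at 0.23. At the low dose MANF was at 0.31, ERP44 at -0.25, SELENOS at 0.23 and CRELD2 at 0.23. The dimmer ERP44 probe set was at 0.06 at the low dose, and the dimmer ATF4 one at 0.17 at the high dose.

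Other genes moved across the same animals. Of 28 listed immediate early genes, whose transcription starts soon after almost any stimulus and needs no new protein, 20 were measured. Their mean level was 8.42, 9.82 and 8.48 in untreated animals. It was 9.87, 8.28 and 9.33 at the low dose and 10.75 and 10.50 at the high dose. Against untreated, 20 of 20 were higher at the high dose (53.3% of all probe sets), with a median difference of 1.76. Of these, 14 had an unadjusted p under 0.05 (3.61% of all). At the low dose 12 of 20 were higher (52% of all), with a median of 0.38. None passed. Both medians were above those of the members, 0.69 and 0.34. The 3 animals lowest for this list, untreated replicates 1 and 3 and low-dose replicate 2, were the 3 lowest for HSPA13, and the 2 high-dose animals were the 2 highest for both. HSPA8 had the same 3 animals lowest. HSPA5, HSPH1 and the brightest HSP70.2 probe set did not follow the order of the early genes. HSPA6 followed it in part: untreated replicates 1 and 3 were lowest and the high-dose animals highest. Its lowest low-dose animal was replicate 3 (5.92), not replicate 2 (6.01). For HSPA5, untreated replicate 2, the highest of its group for the early genes, was level with untreated replicate 1 at the low end. Low-dose replicate 2 was the lowest of its group for both HSPA5 and the early genes. It was the lowest animal of all for the early genes, but the highest of its group for HSPH1. On the brightest HSP70.2 probe set it lay above untreated replicate 2 (11.13 and 11.08). On the second HSP70.2 probe set the same 3 animals were lowest as for the early genes, at 10.25, 10.37 and 10.46. On the third, untreated replicates 1 and 3 were the lowest, and low-dose replicate 2 was the lowest of its group. The part of the immediate early genes in the members' values was not tested.

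**Figure D5:**
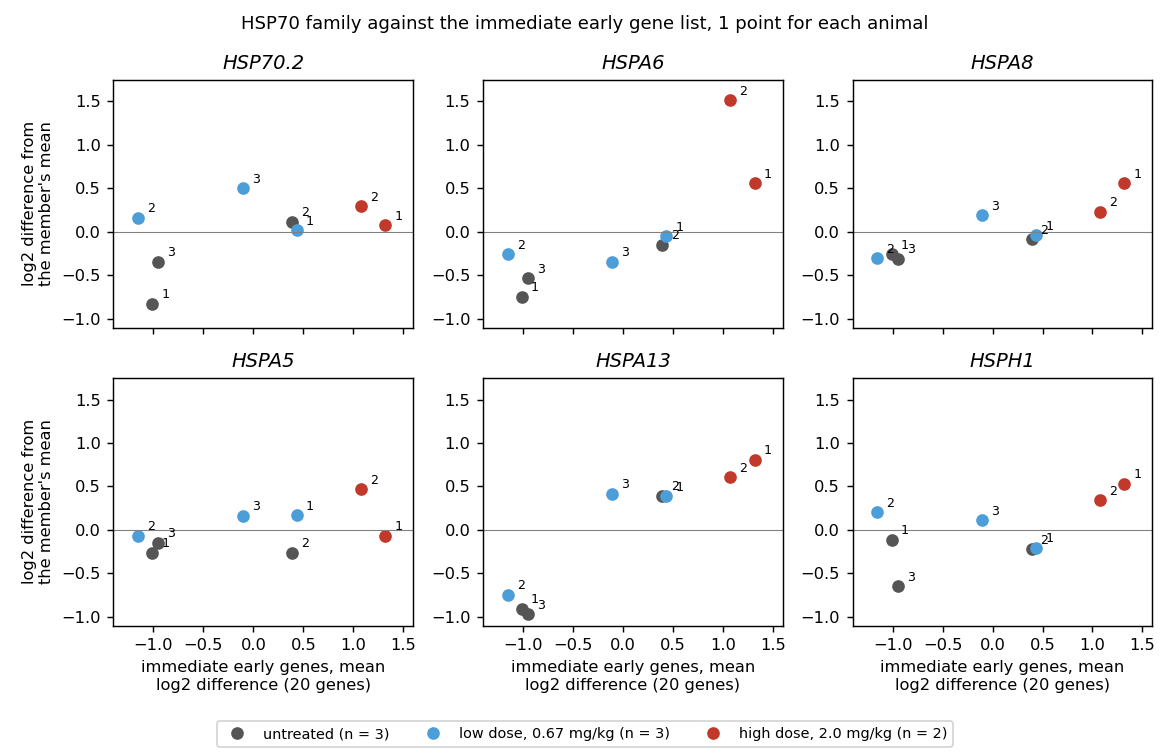
Each member on its brightest probe set (vertical axis, log2 difference from its mean) against the mean of 20 immediate early genes (horizontal axis, log2 difference from their means), 1 point for each animal with its replicate number. For HSPA13 the 3 animals at the left are also the 3 lowest; for HSPH1, HSP70.2 and HSPA5 the points are scattered.

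Markers of other cells were read in the same way, and none passed in any of the comparisons. A lower level at the high dose than in untreated animals was found for 46.7% of all probe sets. The mean level of 8 measured fibroblast markers was 8.31 to 9.01 in untreated animals, 8.55 to 8.81 at the low dose and 7.90 to 8.26 at the high dose, with 6 of 8 lower at the high dose than in untreated animals. For 8 macrophage markers it was 6.70 to 7.18, 6.69 to 7.29 and 6.26 to 6.37 in the same order of groups, with 7 of 8 lower at the high dose. For 10 endothelial markers it was 6.89 to 6.99, 6.62 to 7.03 and 6.62 to 6.87, with 7 of 10 lower. For 8 smooth muscle and pericyte markers it was 9.12 to 9.77, 9.81 to 10.07 and 9.68 to 9.75, with 5 of 8 higher at the high dose and a median difference of 0.11. The 8 lymphocyte markers had a median difference of -0.03, with 5 of 8 lower, the 3 erythrocyte genes one of -0.43, with 2 of 3 lower, and the 5 adipocyte markers one of -0.06, with 4 of 5 lower. In whole tissue a smaller share of a cell type and less RNA in each cell cannot be told apart, and the part of these levels in the members' values was not tested. Untreated replicates 1 and 3 carried neighbouring pig numbers, as did both high-dose animals, and as did untreated replicate 2 with low-dose replicate 1. The last pair, from different groups, was close for HSPA13 (9.96 in each) and HSPA8 (12.91 and 12.95) and apart on the second probe set of HSP70.2 (10.50 and 11.28). What the numbers stand for is not given in the labels, and for the high dose it cannot be told apart from the treatment.

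For each member the 3 genes with the most similar course over the 8 animals were found among about 8500 named probe sets of other genes above background, by Pearson's r. With so many compared over 8 animals that also share their treatment groups, a high r is a description only. HSPA13 was most like the transcription factor MYC (r = 0.988), the splicing factor SRSF6 (0.981) and NDEL1, a dynein regulator (0.979). MYC measured 6.31, 8.75 and 6.38 in untreated animals, 8.44, 6.79 and 8.45 at the low dose and 9.77 and 9.10 at the high dose, with the same split of the animals as HSPA13; it and NR4A2 are on the list of immediate early genes. HSPA8 was most like the immediate early receptor NR4A2 (0.968), the lamin gene LMNA (0.962) and MED27 of the Mediator complex (0.955). HSPH1 was most like HSP90AA1 (0.979), which encodes the stress-inducible HSP90, followed by the proteasome assembly factor PAAF1 (0.967) and HNRNPH3 (0.950). HSPA5 was most like FKBP1B (0.951), SEC23B, a coat protein of vesicles that leave the endoplasmic reticulum (0.944), and FAM107B (0.923). HSPA6 was most like LAP3 (0.960), PPFIBP2 (0.959) and CREB3L2 (0.957), and the brightest HSP70.2 probe set like NGDN (0.988), PPFIBP2 (0.930) and the mitochondrial ADP/ATP carrier SLC25A4 (0.925).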

How the data were processed

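The table that the authors deposited holds log2 signals of 24123 probe sets on 8 arrays. RMA and Partek 6.6 are named, per the submitters' processing notes, without their settings. RMA makes the arrays' distributions alike, so a shift shared by most genes would be lost. Arrays have no read depth; the number of animals limits the precision. Groups follow the treatment named in the labels; replicate numbers follow sample order and pair nothing.

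The 124 control probe sets were left out. A linear model with a mean per group was fitted with limma 3.58.1 (R 4.3.3) to all 23999 others, with 5 residual and 3.50 prior degrees of freedom, for 4 contrasts, with Benjamini-Hochberg adjustment over all probe sets and a threshold of 0.05; the fit was tested on simulated data. Symbols came from the platform annotation (10069 probe sets with 1 symbol, 198 with several, 13732 with none), and list genes were also matched through current RefSeq symbols. The brightest probe set, by mean over the arrays, stands for a gene. From each list that works with HSP70, up to 4 genes with the smallest p at each dose were named; HSF1 was added after its values were seen, and so were the genes labelled in the plot of lists. Members, lists and tests were chosen with earlier results of these data known. Alternatives were other variance priors, a brightness filter, other normalizations, fits of 2 groups, array weights, a looser threshold, averaging over the probe sets of a gene, and leaving out animals. Python 3.11.15 was used for tables and figures.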

Additional observations from a re-analysis of the deposited data

How the results depend on the processing

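For high dose against untreated, the count of probe sets passing was 0 and became 4 with an intensity trend, 7 with a robust variance prior, 3 with median centring, 9 with renewed quantile normalization, 2 with only the 2 groups compared, 13 with array weights, 10 at an adjusted p under 0.1, 55 without the 2 animals with neighbouring pig numbers in different groups, and 0 to 19 without single animals. For high against low dose it was 6, and 1 with probe sets brighter than the median, 0 with only 2 groups, 10 with array weights, 12 without those 2 animals, 14 at an adjusted p under 0.1 and 0 to 7 without single animals. For low dose and for both doses against untreated it was 0, and 1 without those 2 animals. Among the members, 1 of 203 alternative values passed at the high dose, that of the third HSP70.2 probe set (1.14 without the 2 animals), and 0 of 203 in each other comparison. No high-dose or both-dose difference from untreated changed sign, while 6 low-dose differences and 12 high-against-low differences did. High against low, HSPA5 ranged from -0.15 to 0.38 without single animals and HSP70.2 from -0.15 to 0.10; HSP70.2 was at 0.0012 with median centring and 0.26 with the mean of its probe sets. The dim HSPA8 probe sets 2, 3 and 4 ranged from -0.094 to 0.0030, -0.26 to 0.19 and -0.11 to 0.038, with 0.0047 and 0.0017 for sets 3 and 4 after median centring. Low dose against untreated, HSPA8 was at -0.032 with the mean of its probe sets, its sets 3 and 4 ranged from -0.37 to 0.078 and -0.13 to 0.025, set 3 was at 0.023 without the 2 animals, and the dimmer HSPA13 set ranged from -0.031 to 0.16. The cause of these shifts was not tested. No paired analysis was possible because the labels hold no replicate numbers.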
